A study of Homo sapiens with 2 samples.

Results

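The p53 target genes are genes whose transcription the tumour suppressor protein p53 is known to raise after stress. For this report 29 of them were chosen by name, with earlier results of these data known. Every probe set that the platform annotation assigns to a single gene symbol from these names was taken, whatever its value, which gave 65 probe sets of 26 genes among 19735 genes and 54675 probe sets in all. BTG2, BBC3 and FDXR have no such probe set and are not analysed here. Total RNA came from the human cell line HARA, an established line of squamous lung cancer, and from its subline HARA-B4, which seeks bone and metastasises there strongly. Both lines were cultured in the same serum-containing medium, and the labels name no treatment for either. Each line was hybridised as biotinylated cRNA to 1 Affymetrix array (n = 1), so the values below describe 2 arrays, carry no p-value and give no estimate of biological spread.

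In textbook accounts, DNA damage and other stresses stabilise p53 by freeing it from MDM2, a ubiquitin ligase that marks it for degradation, and from MDM4, a partner of MDM2. Stabilised p53 binds DNA as a tetramer at paired half-sites and turns on genes that stop the cell cycle, repair DNA, alter metabolism or start cell death, and MDM2 itself, which closes a feedback loop. In squamous lung cancer the pathway is very often mutated, and several of its targets are also driven by other factors, among them the relatives p63 and p73.

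Of the p53 target genes, most had a lower signal in HARA-B4, and CDKN1A had the largest difference in the other direction. Signals are linear probe set intensities, a probe set was taken as above background over 27.1 (4.76 on the log2 scale), and every difference is the log2 signal of HARA-B4 minus that of HARA, for the brightest probe set of the gene. Of the 26 genes, 24 were above background on both arrays, SPATA18 in HARA only and PLK3 on neither. The 24 genes had a median difference of -0.37, against 0.02 over the 10202 genes above background on both arrays, and 17 of the 24 (70.8%) were below 0, against 47.8% of all genes. At 2-fold, 1 of the 25 genes above background on at least 1 array was higher in HARA-B4, CDKN1A, against 3.62% of 11489 genes, and 3 were lower, GDF15, TP53I3 and XPC, against 4.20%. Repeat measurement was limited to genes with more than 1 probe set, read on the same arrays, whose differences had a pooled within-gene SD of 0.30 in 4830 genes. By that technical yardstick 13 of the 24 genes (54.2%) were lower by more than 1 SD, against 23.4% of all genes, 4 were higher (CDKN1A, RRM2B, TIGAR and PPM1D), against 23.4%, and 7 lay within it.

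**Figure D1:**
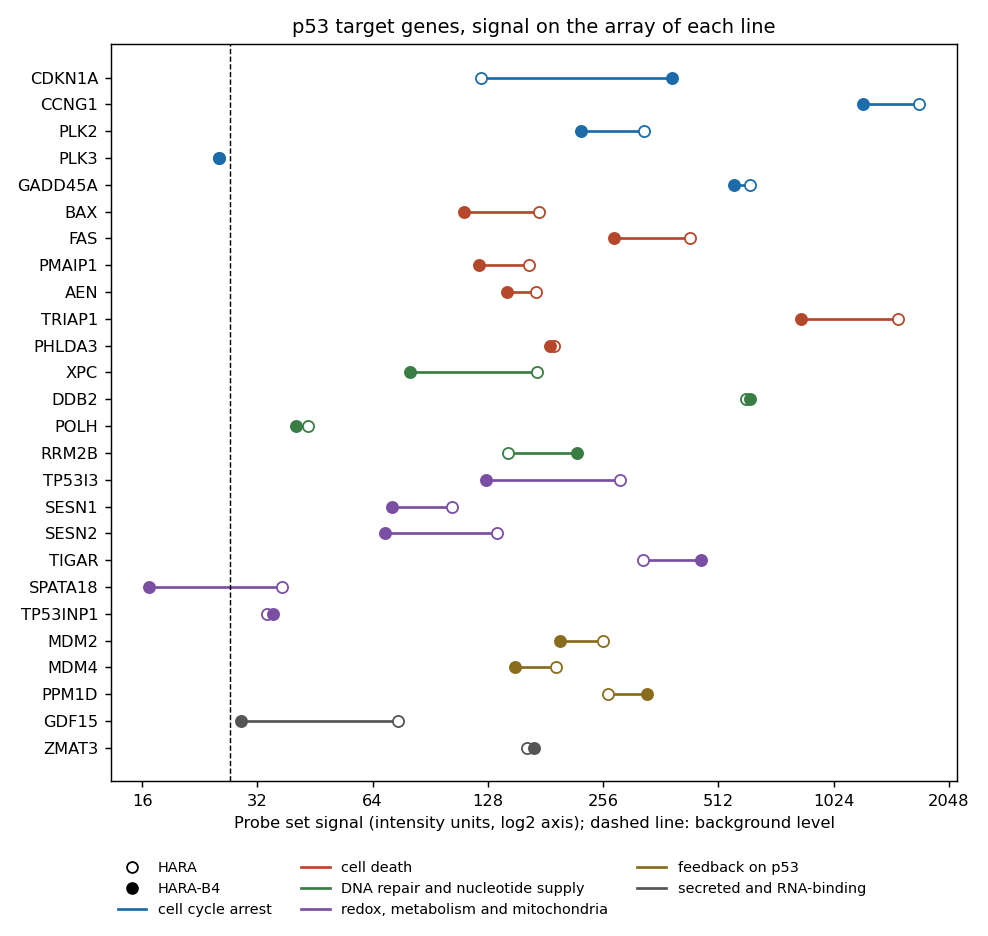
Signal of each p53 target gene on the array of HARA (open points) and of HARA-B4 (filled points), by its brightest probe set, on a log2 axis in intensity units; colours give the role of the gene and the dashed line is the background level of 27.1. The filled point lies to the left of the open point for most genes, CDKN1A moves furthest to the right (122.7 to 387), and PLK3 lies below background on both arrays.

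The lower values lay mostly on probe sets of 1 kind. Probe sets ending in _x_at or _s_at can match several transcripts or several genes, and they measured 11 of the 24 genes. In those 11 genes the median difference was -0.53, and 10 were below 0, all except CDKN1A. In the 13 genes measured by other probe sets the median was -0.036, with 7 below 0 and 6 above. No such gap was seen across the array: 46.7% of 3862 genes measured by the shared kind and 48.5% of 6340 measured by the others were below 0. Counted singly, 20 of the 21 shared probe sets that passed background on both arrays were below 0 (background 48.0%), with a median of -0.63, and so were 11 of 20 others (background 51.4%), with a median of -0.032. At 2-fold, 1 of the 21 was higher (background 2.67%) and 2 lower (background 3.21%), and of the 20 others 0 were higher (background 2.93%) and 1 lower (background 3.78%). With the shared kind left out altogether, 16 genes were above background on at least 1 array, of which 0 were higher at 2-fold (background 3.58%) and 1, XPC, was lower (background 4.38%). The kinds mostly measured different genes, so kind and gene cannot be told apart. MDM4 and POLH, the 2 genes with both kinds above background on both arrays, had their lowest difference on the shared kind.

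**Figure D2:**
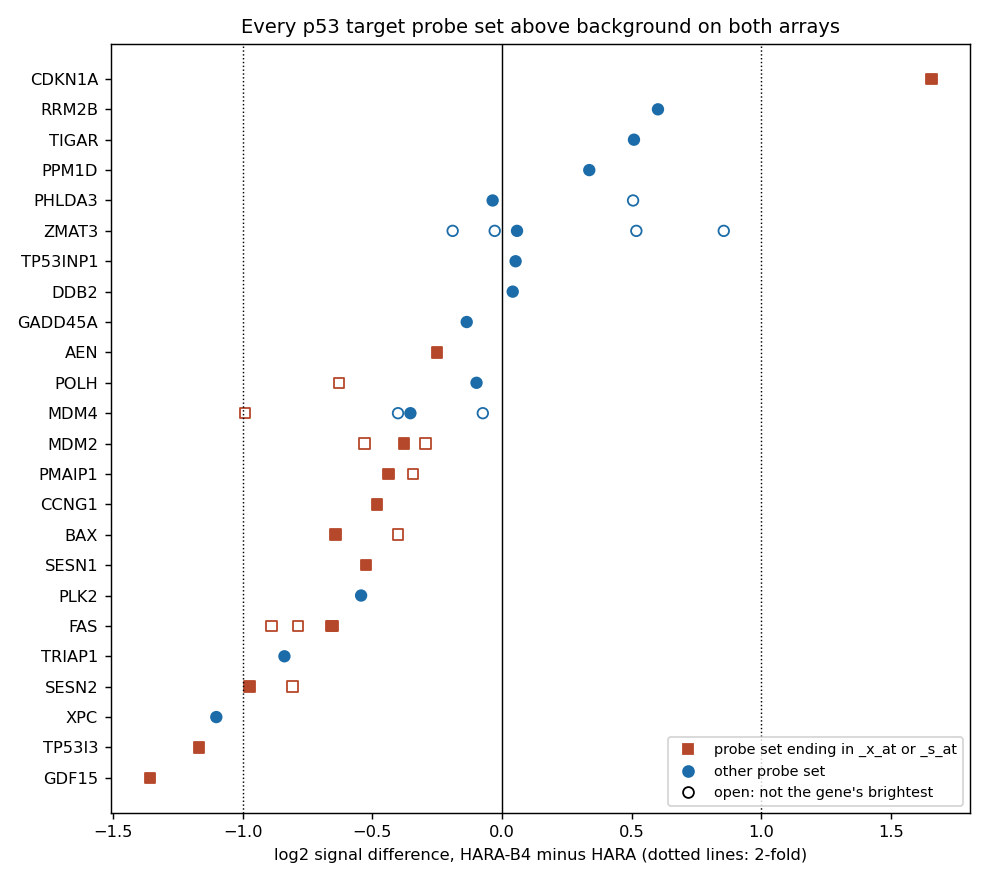
Log2 signal difference (HARA-B4 minus HARA) of every p53 target probe set that passed background on both arrays, 1 line for each gene; squares are probe sets ending in _x_at or _s_at, circles are others, filled points are the brightest of the gene and dotted lines mark 2-fold. All squares except that of CDKN1A lie below 0, while circles lie on both sides of it.

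The promoters of the 4 genes at 2-fold are shown because these genes carry the largest differences in opposite directions. The letters are the 250 bases before the annotated start, read in the direction of the gene from RefSeq (GRCh38.p14). CDKN1A lies at chr6:36678464-36678713 on the + strand, TP53I3 at chr2:24084835-24085084 on the - strand, XPC at chr3:14178602-14178851 on the - strand and GDF15 at chr19:18385908-18386157 on the + strand. Capitals mark the 6-letter GC box GGGCGG or its reverse complement CCGCCC, the core of Sp1 sites.
CDKN1A: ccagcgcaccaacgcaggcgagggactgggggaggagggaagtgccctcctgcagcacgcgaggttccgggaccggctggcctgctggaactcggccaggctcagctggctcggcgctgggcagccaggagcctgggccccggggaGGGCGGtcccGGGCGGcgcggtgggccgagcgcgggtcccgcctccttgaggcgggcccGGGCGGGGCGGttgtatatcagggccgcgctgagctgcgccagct
TP53I3: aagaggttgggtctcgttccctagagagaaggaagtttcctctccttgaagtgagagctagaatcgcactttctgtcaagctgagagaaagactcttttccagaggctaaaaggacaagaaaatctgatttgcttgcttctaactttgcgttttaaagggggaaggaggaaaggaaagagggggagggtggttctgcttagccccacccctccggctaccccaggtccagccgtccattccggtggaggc
XPC: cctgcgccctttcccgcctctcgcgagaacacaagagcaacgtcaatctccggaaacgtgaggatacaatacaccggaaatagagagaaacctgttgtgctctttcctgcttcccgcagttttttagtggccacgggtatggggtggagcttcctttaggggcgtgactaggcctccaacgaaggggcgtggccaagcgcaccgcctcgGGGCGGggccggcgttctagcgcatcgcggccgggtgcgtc
GDF15: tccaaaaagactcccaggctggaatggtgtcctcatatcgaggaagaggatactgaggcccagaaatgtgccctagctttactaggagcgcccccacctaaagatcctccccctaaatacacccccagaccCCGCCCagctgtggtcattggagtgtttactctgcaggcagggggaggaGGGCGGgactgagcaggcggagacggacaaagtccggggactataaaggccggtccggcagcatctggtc
CDKN1A held 4 GC boxes, 2 of which overlap by their end letter, a number reached by 7.63% of all 35116 promoter windows. GDF15 held 2, XPC 1 and TP53I3 0, and 42.6% of all windows held at least 1. The G and C content was 76.4% in CDKN1A, 58.4% in GDF15, 61.2% in XPC and 51.2% in TP53I3. None of these 4 windows held the p53 half-site consensus, also when the 50 bases after the start were included, which says only that these letters are not in the window.

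The p53 half-site consensus, a palindrome of 10 letters, was searched without mismatches and on both strands at once in windows from 250 bases before to 50 bases after each annotated start. Of the 29 genes, 25 had such a window in RefSeq (36 windows in all), and RRM2B, TP53INP1, PHLDA3 and GADD45A had none in the table. The consensus stood in 6 of the 36 windows (16.7%), of 6 different genes, against 6.63% of all 35116 windows. The matches are shown with up to 10 bases on each side, half-sites in capitals, because they are the only exact ones in the 36 windows. They lie at chr5:58460199-58460228 (- strand) for PLK2, chr6:109009018-109009047 (- strand) for the third SESN1 start, chr10:88991299-88991328 (+ strand) for the second FAS start, chr11:47214976-47215002 (+ strand) for the second DDB2 start, chr15:88621296-88621325 (+ strand) for AEN and chr17:74872986-74873015 (- strand) for the first FDXR start.
PLK2: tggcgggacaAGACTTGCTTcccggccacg
SESN1: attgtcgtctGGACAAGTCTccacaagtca
FAS: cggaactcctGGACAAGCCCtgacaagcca
DDB2: tttGAACAAGCCCtGGGCATGTTTggc
AEN: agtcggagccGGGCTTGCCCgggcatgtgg
FDXR: gggcaggagcGGGCTTGCCCtgcggagcag
DDB2 alone among them held a pair of half-sites, 1 base apart, and 10 windows of all 35116 held a pair with at most 13 bases between. The differences of these genes in HARA-B4 were -0.54 for PLK2, -0.53 for SESN1, -0.66 for FAS, 0.04 for DDB2 and -0.25 for AEN, so the gene with the full pair had the smallest difference of the 5. Windows of different starts of a gene can overlap. Sites outside such windows, such as those known further upstream of CDKN1A, and sites with less exact letters were not searched.

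Among the genes of cell cycle arrest, CDKN1A stood alone. CDKN1A encodes p21, the inhibitor of cyclin-dependent kinases through which p53 halts the cycle in G1. Its signals were 122.7 and 387 on the HARA and HARA-B4 arrays. That is 3.15-fold higher in the subline, a difference of 1.66, which exceeded that of 99.1% of all genes. It was measured by 1 probe set, of the _s_at kind, so no second probe set of the gene bears on it. The other measured members of this role did not share that direction. CCNG1, which encodes cyclin G1, a partner of a phosphatase that acts on MDM2, had signals of 1709 and 1224 in HARA and HARA-B4 (-0.48). PLK2, a polo-like kinase, had signals of 327 and 225 (-0.54). GADD45A, a stress sensor that inhibits the G2 to M step, had 620 and 564 (-0.14), a difference inside the within-gene SD. PLK3, a second polo-like kinase, was not above background by any of its 3 probe sets, the brightest being at 25.3 in HARA and 25.5 in HARA-B4.

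The genes of cell death were all below 0 by their brightest probe set (background 47.8%), though none reached 2-fold (background 3.62% higher and 4.20% lower). The 6 measured genes had a median difference of -0.54 and ran from -0.84 to -0.04. The brightest probe sets of BAX, FAS, PMAIP1 and AEN were of the shared kind, and those of TRIAP1 and PHLDA3 were not. FAS, the death receptor for FAS ligand, had signals of 431 and 273 on the HARA and HARA-B4 arrays by its brightest probe set (-0.66). The other 3 probe sets of FAS above background on both arrays differed by -0.89, -0.79 and -0.65, so all 4 were below 0. All 4 were of the shared kind. The fifth, of the other kind, went the opposite way, from 23.4 in HARA, under background, to 30.03 in HARA-B4, just above it. BAX, the pore-forming protein of the mitochondrial outer membrane, had signals of 173.6 and 111.1 by its brighter probe set (-0.64) and differed by -0.40 by the other. PMAIP1, which encodes the BH3-only protein NOXA, had 164.2 and 121.1 (-0.44), with -0.34 by the second probe set. TRIAP1, a small protein that restrains the apoptosome, had the largest difference of the role, with signals of 1505 and 841 (-0.84). The genes of this role below 0 thus include both promoters of cell death and an inhibitor of it. AEN, an apoptosis-enhancing nuclease, had 171.1 and 143.8 (-0.25). PHLDA3, an inhibitor of the kinase AKT, had 190.1 and 185.4 (-0.04), and its second probe set gave 103.2 and 146.5 (0.51), so its direction depends on the probe set.

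DNA repair genes went in different directions. XPC, the damage sensor of global nucleotide excision repair, had signals of 172.4 and 80.3 on the HARA and HARA-B4 arrays, 2.15-fold lower (-1.10), and its difference was lower than that of all but 2.83% of genes. Its only probe set is not of the shared kind, which made it the 1 gene of the 3 lower at 2-fold that did not depend on such a probe set. DDB2, which recognises ultraviolet damage in the same repair pathway, had 603 and 621 (0.04). The damage sensors of this pathway therefore did not differ alike. RRM2B, the p53-inducible small subunit of ribonucleotide reductase, which supplies deoxynucleotides for repair, had 144.5 and 219.2 (0.60), 1.52-fold higher. POLH, the polymerase that copies past ultraviolet lesions, had 43.3 and 40.4 by its brightest probe set (-0.10) and -0.63 by an _s_at probe set, whose signals of 42.7 and 27.6 ended at background. Most probe sets of POLH were dim, with only 2 of 6 above background on both arrays.

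Of the genes of redox balance, metabolism and mitochondria, 5 were above background on both arrays, with 3 below 0 (background 47.8%) and 2 above. At 2-fold 1 was lower (background 4.20%). TP53I3, a quinone oxidoreductase also known as PIG3, had signals of 283.9 and 126.2 on the HARA and HARA-B4 arrays, 2.25-fold lower (-1.17), by its single _s_at probe set. The sestrins, stress proteins that restrain the growth kinase complex mTORC1, did not reach 2-fold, and their probe sets above background were all of the shared kind. SESN2 had 134.9 and 68.7 (-0.97), just short of 2-fold, and its second probe set gave 77.5 and 44.3 (-0.81). SESN1 had 103.2 and 71.7 (-0.53). TIGAR, a fructose bisphosphatase that slows glycolysis, was on the other side, with 325 and 462 (0.51). TP53INP1, which takes part in autophagy and cell death, had 33.9 and 35.2 (0.05), near background on both arrays. SPATA18, a regulator of mitochondrial quality, had 37.0 in HARA and 16.7, below background, in HARA-B4, so it was at least 1.36-fold lower.

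The feedback regulators of p53 were split. MDM2 had signals of 256.2 and 197.2 on the HARA and HARA-B4 arrays by its brightest probe set (-0.38), and its other 2 probe sets above background on both arrays gave -0.53 and -0.29. The 3 were all of the shared kind. A further 2, 1 of each kind, with signals of 31.5 and 14.6 (shared) and 36.3 and 17.1 (other), were above background in HARA only, and the remaining 5 were on neither array. MDM4 had 192.6 and 150.7 by its brightest probe set (-0.35), and the other 3 gave -0.99, -0.40 and -0.07, all below 0 but unequal in size. PPM1D, which encodes WIP1, the phosphatase that shuts down damage signalling to p53, had 264 and 333 (0.34), the opposite direction to both MDM genes.

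The members without a shared role were GDF15 and ZMAT3. GDF15, a secreted stress cytokine of the TGF-beta superfamily, had signals of 74.4 and 29.0 on the HARA and HARA-B4 arrays by an _x_at probe set, 2.56-fold lower (-1.36), the lowest difference of all 24 genes and lower than that of all but 1.56% of genes. The HARA-B4 value lies just over the background of 27.1, so its size is uncertain, and both other probe sets of GDF15 were below background on both arrays. ZMAT3, an RNA-binding zinc finger protein also known as WIG1, was measured by 5 probe sets above background on both arrays, none of the shared kind. They ran from -0.19 to 0.86, and the brightest gave 162.1 and 168.7 (0.06), so ZMAT3 showed no single direction. Of the 9 genes with more than 1 probe set above background on both arrays, 7 had all of them below 0, 2 (PHLDA3 and ZMAT3) had them on both sides and 0 had all above. Each of the 7 had at least 1 probe set of the shared kind among them, while PHLDA3 and ZMAT3 had only the other kind. Kind and gene cannot be told apart in this split. In MDM4 and POLH the probe sets of the other kind were below 0 as well, at -0.35, -0.40 and -0.07 in MDM4 and -0.10 in POLH. The share of such genes over all genes was not counted.

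The differences of the p53 target genes were set beside those of their neighbours in the genome. For each of the 24 genes the 24 nearest genes above background on both arrays were taken, up to 12 on each side in RefSeq order. The medians of these neighbours lay between -0.29 and 0.21. Of the 24 genes, 17 lay below the median of their neighbours (background 49.8%), 15 below their 25th percentile (background 26.9%) and 3 above their 75th (background 26.9%), namely CDKN1A, RRM2B and TIGAR. The 15 held every gene measured by the shared kind of probe set except CDKN1A. Of the genes measured by other probe sets they held PLK2, TRIAP1, XPC, POLH and MDM4. The limit of probe set kind given above therefore holds here too. XPC on chromosome 3 differed by -1.10 beside neighbours with a median of 0.17, and CDKN1A on chromosome 6 by 1.66 beside 0.07. TP53I3 on chromosome 2 differed by -1.17 beside 0.08, and SESN2 on chromosome 1 by -0.97 beside 0.08. The neighbours of TRIAP1 on chromosome 12 and of GDF15 on chromosome 19 had medians of -0.29 and -0.24. The part of those neighbourhoods in the differences of TRIAP1 and GDF15 was not tested.

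**Figure D3:**
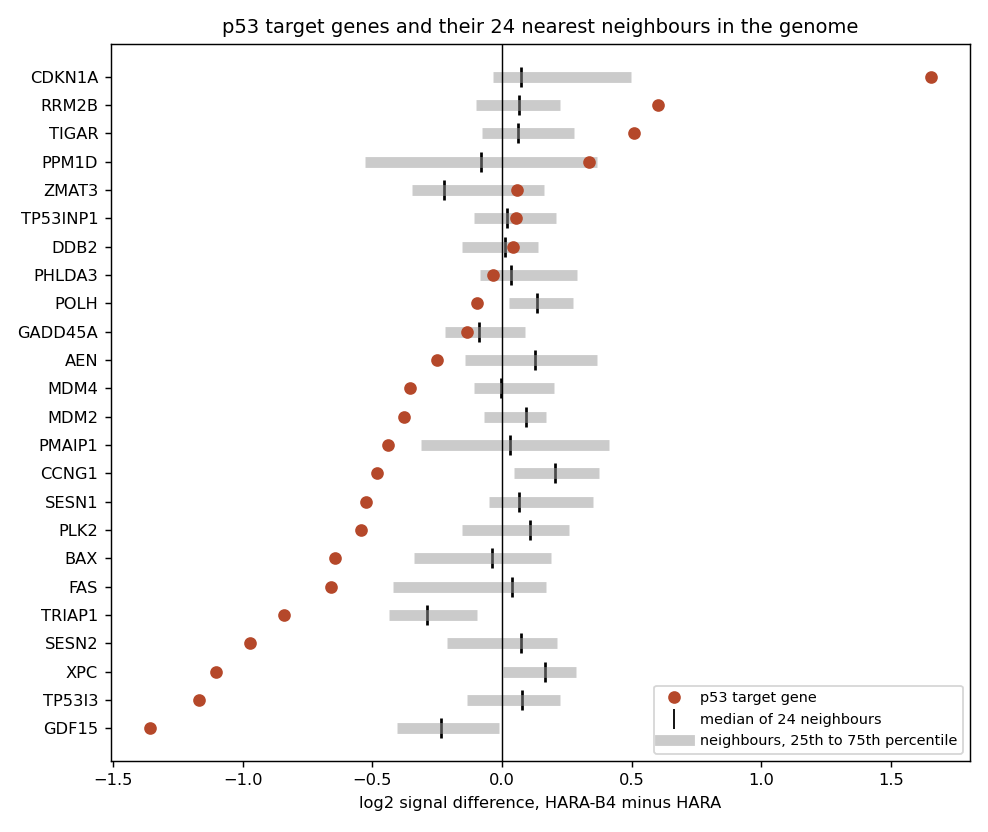
Log2 signal difference (HARA-B4 minus HARA) of each p53 target gene above background on both arrays (points), with the median (ticks) and the 25th to 75th percentile (grey bars) of its 24 nearest genes. The neighbour medians stay between -0.29 and 0.21, and 15 points lie to the left of their bar and 3 to the right. Each point is the brightest probe set of the gene, of either kind, and all genes of the shared kind except CDKN1A are among the 15.

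Of 25 listed regulators of p53, 22 had a probe set, all were above background on both arrays, and their median difference was -0.10, beside -0.37 for the target genes. Without the shared kind of probe set the order turned, with -0.098 for the regulators and -0.036 for the target genes. PPP1R13L, which encodes iASPP, an inhibitor of p53, was the 1 gene at 2-fold, with signals of 187.6 and 432 on the HARA and HARA-B4 arrays (1.20) by a single probe set of the _s_at kind, which is 4.55% of the list beside the 3.62% of all genes. No regulator was lower at 2-fold (background 4.20%), and the lowest was TRIM24, a ubiquitin ligase for p53, at -0.70. CDKN2A, whose locus encodes p16 and the MDM2 inhibitor ARF, had 2519 and 2584 (0.04). The damage kinases had differences of -0.26 (ATM), 0.06 (ATR), -0.19 (CHEK1) and -0.30 (CHEK2), and the p53 relative TP73 had 76.8 and 69.6 (-0.14).

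A further list held 50 p53 targets outside the panel, of which 48 had a probe set. The 37 above background on both arrays had a median of -0.12, with 19 below 0 (51.4%, background 47.8%) and 18 above. Without the shared kind their median was -0.039, beside -0.036 for the panel. Of 41 above background on at least 1 array, 4 were lower at 2-fold (9.76%, background 4.20%) and 1 was higher (2.44%, background 3.62%). KITLG, the ligand of the receptor KIT, had signals of 2091 and 820 on the HARA and HARA-B4 arrays (-1.35), and the 2 further probe sets above background gave -1.68 and -1.48. DRAM1, a lysosomal protein of autophagy, had 146.6 and 69.0 (-1.09). RPRM, which encodes reprimo, a G2 arrest protein, was at 83.8 in HARA and below background in HARA-B4, at least 3.09-fold lower. TLR3, a sensor of double-stranded RNA, was at 73.8 in HARA and below background in HARA-B4, at least 2.72-fold lower. CDIP1, a death-inducing protein, was at 64.7 in HARA-B4 and below background in HARA, at least 2.38-fold higher by an _s_at probe set. Its other probe set gave 24.5 in HARA, below background, and 46.3 in HARA-B4, short of a 2-fold bound, and no gene of the list was higher at 2-fold without the shared kind, with a background 1 log2 unit higher or with log2(signal + 16).

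The genes that p21 is known to silence had a median near 0. p21 represses many genes of S phase and mitosis through the DREAM complex, and of 31 such genes 30 were measured, all above background on both arrays. Their median difference was 0.03, with 14 below 0 (46.7%, background 47.8%) and 16 above, and 0 reached 2-fold (background 3.62% higher and 4.20% lower). The sign of that median turned under quantile normalization (-0.0013) and with the trend removed (-0.0080). CDK1, the mitotic kinase, had signals of 3416 and 3793 on the HARA and HARA-B4 arrays (0.15), PRC1, a bundler of spindle microtubules, had 2099 and 2442 (0.22), and MKI67, the proliferation marker Ki-67, had 420 and 527 (0.33). The extremes were PLK4, the kinase of centriole duplication (-0.79), and the nuclear lamin LMNB1 (0.73). By more than the within-gene SD, 8 of the 30 genes were lower (26.7%, background 23.4%) and 5 higher (16.7%, background 23.4%). Of 18 genes of the G1 machinery, 17 had a probe set and 14 were above background on both arrays, with a median of 0.17 (0.05 with the mean of probe sets) and 0 at 2-fold, beside the same background. PCNA, the replication clamp that p21 binds, had 3823 and 3394 (-0.17). Among the cyclins of the kinases that p21 inhibits, higher values in HARA-B4 were found for CCND1 at 874 and 1173 (0.42), CCNE1 at 133.0 and 240.0 (0.85), CCND3 at 332 and 510 (0.62) and CCNE2 at 412 and 579 (0.49). The cyclins did not all go that way: CCNA2, from the list of silenced genes, was lower, at 1337 and 997 (-0.42). CCND2 was below background on both arrays. CDKN1B, which encodes p27, the close relative of p21, had 706 and 622 (-0.18).

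**Figure D4:**
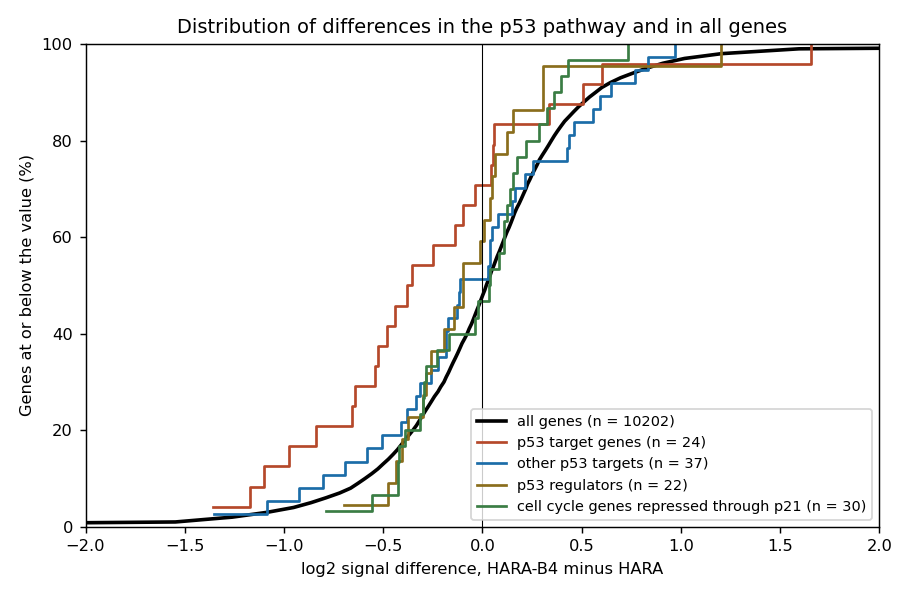
Percentage of genes at or below each log2 signal difference (HARA-B4 minus HARA), for all 10202 genes above background on both arrays (black) and for 4 groups of the p53 pathway (steps). The steps of the 24 p53 target genes lie to the left of the black line over most of their height, by the brightest probe set of each gene, of either kind. Near the top they come close to it, and the last step, CDKN1A, lies to its right. The steps of the 37 other targets, 22 regulators and 30 cell cycle genes run closer to the black line.

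Markers of cell identity were checked on both arrays. All 7 squamous epithelial markers with a probe set were above background on both, with KRT5 at 4723 and 4504. At 2-fold, 1 of them, the plakophilin PKP1, was higher (1.82), against 3.62% of all genes, and 0 were lower, against 4.20%. Of 10 fibroblast markers 3 were above background on at least 1 array, with FAP higher, at 154.6 in HARA-B4 and below background in HARA, THY1 lower, at 63.8 in HARA and below background in HARA-B4, and COL1A1 at 184.9 and 139.9. At 2-fold, 1 of these 3 was higher (FAP) and 1 lower (THY1), against 3.62% and 4.20% of all genes. The fibroblast collagens COL1A2 and COL3A1 were below background on both. Of 8 blood cell markers 2 were above background, CD79A (-0.20) and HBB (-0.07), and of 8 bone cell markers 1, MMP9 (0.20). The part of FAP- or THY1-expressing cells in the values above was not tested. Over all probe sets the arrays were alike, with median signals of 17.3 (HARA) and 16.2 (HARA-B4), and 42.0% and 40.8% passed background.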

How the data were processed

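RNA of HARA and HARA-B4 was measured on 1 array each. The deposited values are linear intensities (signals) of 54675 probe sets, made by the authors with Affymetrix Expression Console, per the submitters' processing notes. Neither its version nor the summary algorithm, background correction or scaling is stated in the sources used. The log2 of the deposited value was taken with no further scaling. Of the probe sets, 41097 had 1 symbol, 1801 several and 11777 none, and 41043 were matched to RefSeq (GRCh38.p14) by Entrez ID. The background level was the 95th percentile, over both arrays, of 165 olfactory, taste and vomeronasal receptor probe sets. Each gene is represented by its brightest probe set (mean log2 over both arrays). A gene above background on 1 array only has a lower bound, with the other array set to background. Calls are at 2-fold. With 1 array a group no test was possible, and precision is limited by their number. The members, roles and lists were chosen with earlier results of these data known. Every member is named; in the other lists, up to 4 genes with the largest call, or the 2 brightest, are named by rule, and further genes were named after their values were seen. Alternatives changed the scaling, background, probe set, log scale, fold and agreement of probe sets. Python 3.11.15, numpy 2.4.6, pandas 2.3.3 and statsmodels 0.14.6 were used.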

Additional observations from a re-analysis of the deposited data

How the results depend on the processing

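The median difference of the p53 target genes, -0.37, stayed between -0.44 and -0.33 under 7 of 8 alternatives: the 3 other scalings, both other background levels, the mean of probe sets and log2(signal + 16). With probe sets of the _x_at and _s_at kind left out, 13 of the genes were left above background on both arrays and the median was -0.036, with 0 genes higher at 2-fold (background 3.58%) and 1 lower, XPC (background 4.38%). At 1.5-fold 2 were higher (background 10.2%) and 7 lower (background 11.05%). At 3-fold CDKN1A was still called (background 1.23%), and 0 were lower (background 1.35%). With log2(signal + 16) XPC was no longer at 2-fold, and with a background 1 log2 unit higher the bound of GDF15 was -0.46. Of 188 values of single members under the alternatives, 182 moved by less than the within-gene SD of 0.30. Many of them could not move, so that count is no measure of stability. A background step leaves a gene well above background unchanged, and the mean leaves a gene with 1 probe set unchanged. No member at 2-fold changed its direction where it still had a value. Without the shared kind, CDKN1A, GDF15 and TP53I3 had no value and were not counted. SPATA18 was lower at 2-fold with a background 1 log2 unit lower (-1.15), and PHLDA3 was on the higher side with the mean of its probe sets (0.23). The same mean gave -0.68 for MDM2 and -0.41 for POLH, and log2(signal + 16) gave -1.01 for GDF15. FAS measured by its 1 probe set not of the shared kind was on the higher side, with a bound of 0.15. In the other lists, counts past the fold used ranged over the alternatives from 0 to 7 higher and 1 to 7 lower in the other p53 targets. They ranged from 0 to 1 in each direction in the regulators and in the cell cycle genes, and from 0 to 4 higher in the G1 genes. Both counts of 7 (of 41 genes) and that of 4 (of 16) came at 1.5-fold, where 10.2% of all genes were higher and 11.05% lower. At 2-fold the other p53 targets had 0 to 2 higher (background 2.54% to 4.41%) and 2 to 5 lower (background 3.11% to 5.10%). Without the _x_at and _s_at kind the median of the other p53 targets was -0.039 and that of the regulators -0.098, so the target genes no longer had the lowest median. With the mean of probe sets the median of the G1 genes was 0.05. No replicate could be left out with 1 array a line, and no paired analysis was possible because each line has 1 array.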
